A study of Mus musculus with 8 samples.

Results

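The genes described here encode the proteasome, the large protease that degrades ubiquitin-tagged proteins, together with its activators, its inhibitor and the chaperones that assemble it. They were taken as every gene of the deposited table whose symbol begins with Psma to Psmg followed by a number, which gave 50 of 24016 genes. Of these, 48 belong to the complex or help to build or control it, and 2 match the pattern only by name: Psmc3ip, a factor of meiotic recombination, and Psme2b, a near-copy of the activator gene Psme2. The filter of at least 1 CPM (reads per 1000000 reads assigned to genes) in at least 2 libraries was passed by 49 of the 50, among 12881 genes tested. Psmb11, the catalytic subunit found in thymic cortical epithelium, had 0 reads in each of the 8 libraries, and the limit that a count of 0 allows is 3 reads, 0.152 to 0.213 CPM depending on the library and covering counting error only.

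The catalytic core of the proteasome is a barrel of stacked rings of α and β subunits, and the regulatory particle that caps it holds the ATPases that unfold substrates and feed them in. Cells exposed to interferon-γ, and many cells of the immune system at rest, replace the 3 catalytic β subunits with the immunoproteasome subunits Psmb8, Psmb9 and Psmb10, which changes the peptides produced for display on MHC class I molecules. The interferon-inducible activator of Psme1 and Psme2 opens the core without ATP or ubiquitin, and Psme3 forms a related activator in the nucleus.

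RNA sequencing measured CD4+ T cells from mouse spleen in 8 libraries, 4 groups of 2 with replicates called A and B. The monoclonal groups came from NOD.TCRab.FoxP3GFP.Rag-/- mice, in which all T cells carry 1 T cell receptor; the series title describes a nuclear transfer model, and the labels call the cells NT. The polyclonal groups came from NOD.FoxP3GFP mice with a diverse repertoire. Each kind of mouse gave regulatory T (Treg) cells, positive for the FoxP3GFP reporter, and reporter-negative non-Treg cells, so the NOD background and the reporter are common to all 4 groups. No treatment, age or sex is given, and no separate animals are named for the 2 libraries of a group, so p-values measure only the spread between these libraries, which may be technical. Receptor, Rag genotype and strain change together between the monoclonal and polyclonal mice and cannot be told apart.

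Depth was 14076330 to 19722321 reads per library. Foxp3, the gene of the reporter, measured 2281 to 2709 CPM in the 4 Treg libraries, and among non-Treg libraries 319 and 405 CPM in the monoclonal and 81.9 and 84.2 CPM in the polyclonal pair. The T cell receptor subunit Cd3e was present throughout, at 406 and 454 CPM in monoclonal non-Treg libraries and 623 to 805 CPM elsewhere. Cd4 went the other way between the monoclonal groups, at 1257 and 1360 CPM in non-Treg and 827 and 792 CPM in Treg libraries. The 4 T cell markers measured summed to 2383 and 2318 CPM in monoclonal non-Treg libraries. Their sum was 2482 and 2487 CPM in monoclonal Treg and 2365 to 3198 CPM in polyclonal libraries. Markers of antigen-presenting cells were also present in the monoclonal libraries. All 9 dendritic cell markers fixed for this check passed the filter, and their sum was 1721 and 1941 CPM for the monoclonal non-Treg pair, 507 and 419 CPM for the monoclonal Treg pair and 45.9 to 70.2 CPM over the polyclonal libraries, where Batf3 and Clec9a had 0 reads in both Treg libraries. Of 8 myeloid markers 7 were in the table, summing to 260 to 974 CPM in monoclonal and 14.5 to 21.6 CPM in polyclonal libraries, and 4 of 6 B cell markers passed the filter, with a list sum of 216 and 257 CPM for the monoclonal non-Treg pair and 28.2 to 66.4 CPM over the other 6 libraries. Cd22 made up most of the B cell sum and the defining marker Pax5 reached at most 0.111 CPM in any library. The 5 genes of class II presentation summed to 18702 and 20962 CPM for the monoclonal non-Treg pair, 6500 and 4822 CPM for the monoclonal Treg pair and 69.3 to 229 CPM over the polyclonal libraries. Between the Treg groups, 7 of 9 dendritic, 7 of 7 myeloid and 5 of 5 class II genes were higher in monoclonal cells (limma adjusted p under 0.05, against 24.2% of all genes called). These values move with the monoclonal Treg effect and with both comparisons of monoclonal with polyclonal cells, and antigen-presenting cells also express immunoproteasome genes. Their part in the values below was not tested.

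The polyclonal Treg libraries stood apart from each other in these genes, with the widest median gap of the 4 groups. Of the 49 members, 44 were lower in replicate A than in replicate B, 89.8%, against 52.2% of all genes tested. The median difference, A minus B on the log2(CPM + 1) scale, was -0.40 for the members and -0.03 for all genes. The corresponding counts of members lower in A were 22 in monoclonal Treg (44.9%, against 48.3% of all genes), 7 in monoclonal non-Treg (14.3% against 45.6%) and 30 in polyclonal non-Treg (61.2% against 49.7%). The medians were 0.02, 0.18 and -0.03. The monoclonal non-Treg pair was thus also split across most members, in the opposite direction, and 11 of 49 lay above their own mean in its replicate B. Polyclonal Treg replicate B held the highest level of 33 of the 49 members, and 46 lay above their own 8-library mean there; replicate A held the lowest level of 18 members. The widest gaps were in Psmb3, a β ring subunit, at 6.39 CPM in A and 19.2 in B, and Psma6, an α ring subunit, at 46.3 and 105 CPM. Psme1 followed the same order at 108 and 209 CPM, as did Psmb10 at 68.2 and 124 CPM. The large activator Psme4 went the other way, with 155 CPM in A and 117 in B. Replicate A was the shallowest library and B the deepest. Shorter transcripts tended to be lower in A, with a Spearman correlation of transcript length with the A minus B difference of 0.29 over the 49 members and 0.35 over all 12881 genes, a description across genes that share both libraries. The part of depth and transcript length in the gap was not tested. Because the 2 libraries disagree, the counts of members past the threshold in comparisons with polyclonal Treg cells, and the results that changed most, are given below with and without each of them.

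**Figure D1:**
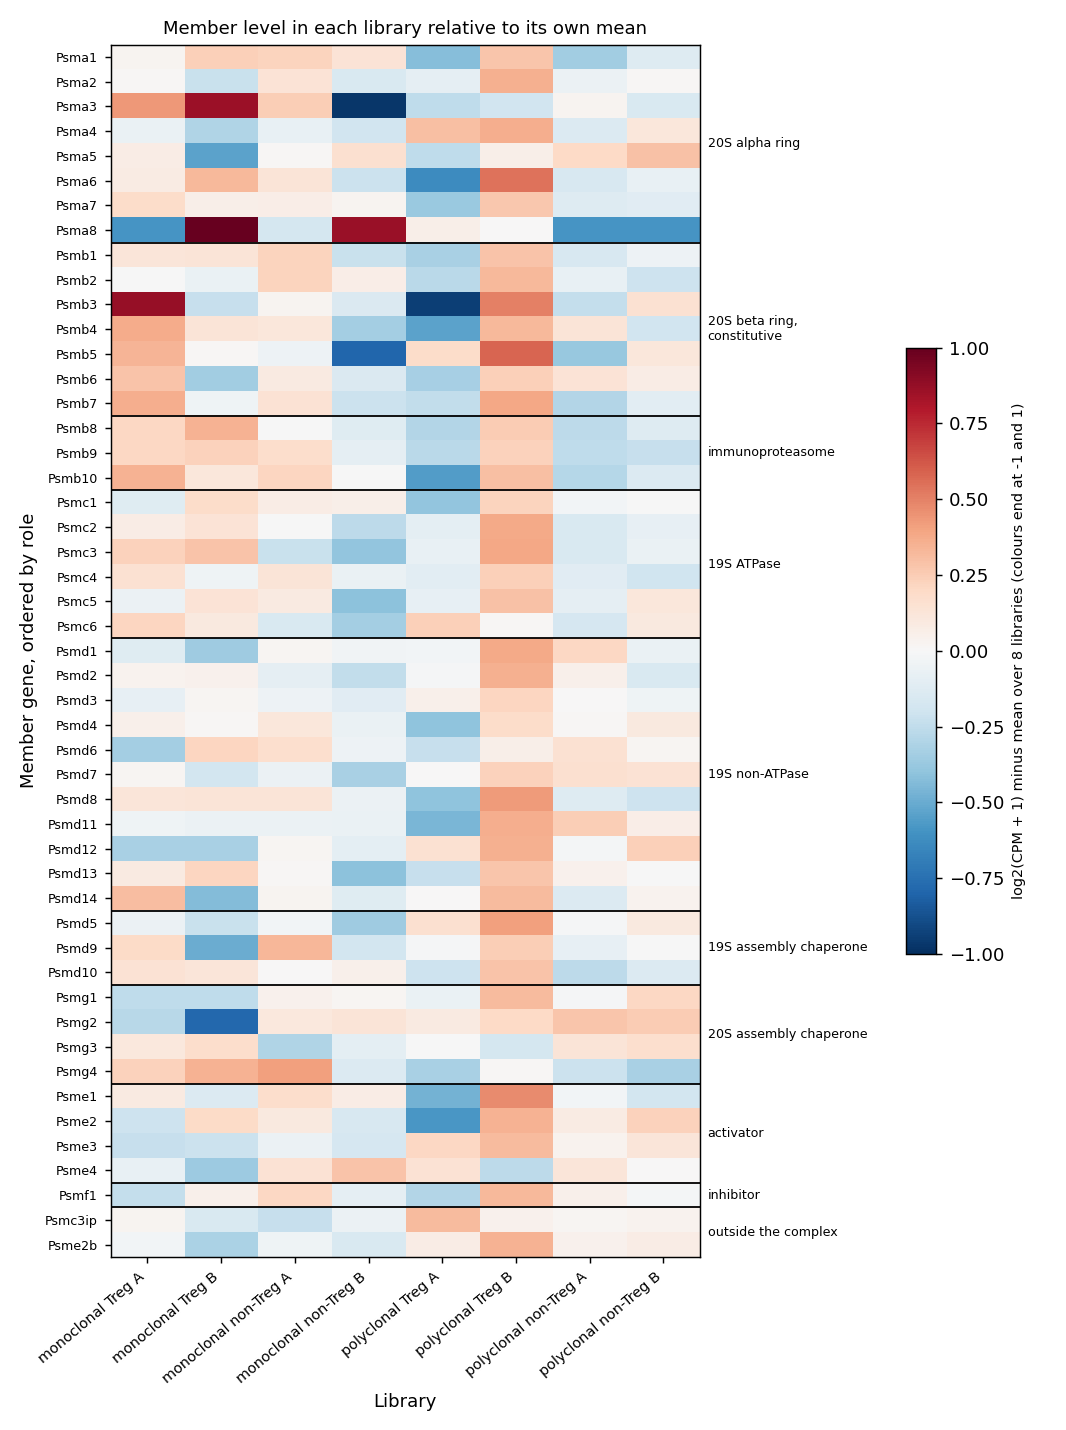
Levels of the 49 members in each of the 8 libraries. Each cell shows log2(CPM + 1) minus that gene's mean over the libraries, genes run down the vertical axis in order of role with black lines between roles, and libraries run along the horizontal axis. Polyclonal Treg B is the library in which most members are above their mean (46 of 49), and polyclonal Treg A holds the lowest value of 18.

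Per kilobase of transcript, the immunoproteasome was the most abundant catalytic set. Psmb8, which takes the place of the chymotrypsin-like subunit Psmb5, had the highest mean level of all members, 296 CPM per kb over the 8 libraries. It was followed by Psme1 with 158 CPM per kb and Psmb9, which replaces Psmb6, with 149.8 CPM per kb. Psmb10, which replaces the trypsin-like subunit Psmb7, reached 81.6 CPM per kb and ranked 9 among the members. The highest constitutive β subunit was Psmb1, a structural part of the ring, at 104 CPM per kb, while the highest α ring subunit was Psma2 at 84.2. In the regulatory particle the highest ATPase was Psmc3 at 75.7 CPM per kb and the highest non-ATPase was Psmd4, a ubiquitin receptor, at 83.2. The highest assembly chaperone was Psmg2, which acts on the core, at 35.8 CPM per kb. The median member had a mean of 73.1 CPM, against 30.9 CPM for all genes tested. At the lower end, Psma8, the α subunit of spermatogenic cells, had 0 to 2.03 CPM and 0 reads in 3 of 8 libraries.

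Some of these levels are uncertain because the genes share transcript sequence with others, among them pseudogene copies. The sources used here do not state how reads matching several genes were counted. Windows of 50 bases were compared on both strands, so a gene overlapping on the opposite strand also counts as sharing. Over 50% of the 50-base windows of Psma5, Psmb3, Psmb5, Psme2 and Psme2b also occur in transcripts of other genes, with 55.4% for Psma5, 55.8% for Psmb3, 57.1% for Psmb5, 59.3% for Psme2 and 69.3% for Psme2b. Psme2 and Psme2b share most of theirs with each other, so their separate values, 18.6 to 36.4 CPM and 96.5 to 153 CPM, cannot be read as levels of 2 genes. A further 6 members share 20% to 50% of their windows, 14 share less than that, and 24 share none. Of the immunoproteasome genes, Psmb10 shares 0, Psmb8 shares 5.83% and Psmb9 shares 12.5%. The windows of Psmb8 are shared only with an antisense gene and those of Psmb9 only with Tap1.

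**Figure D2:**
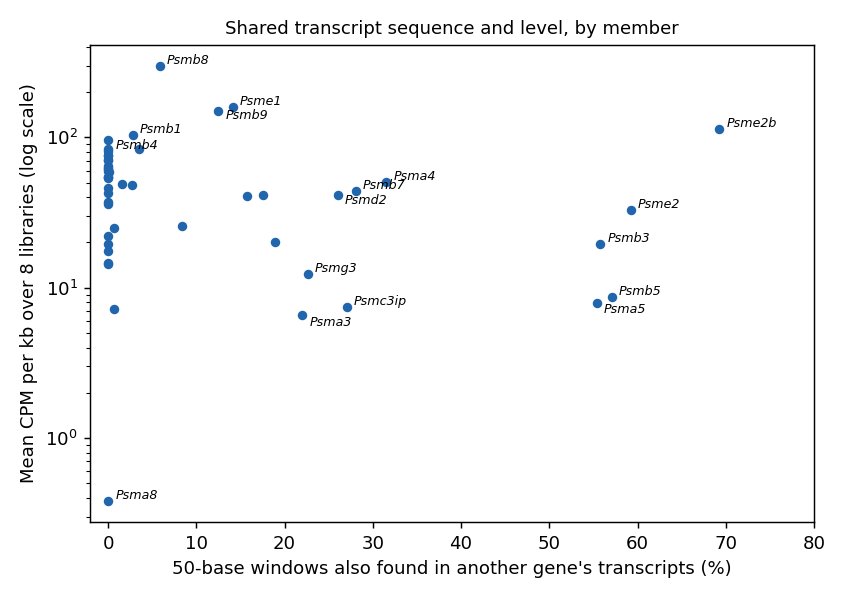
Share of each member's 50-base transcript windows found in another gene's transcripts (horizontal axis, percent) against its mean level (vertical axis, CPM per kb over 8 libraries, log scale), 1 point per member. Psmb5 and Psma5 combine a share over 50% with levels under 10 CPM per kb, and Psmb8 has the highest level at a share of 5.83%.

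The immunoproteasome genes Psmb8 and Psmb9 lie close together in the MHC region of chromosome 17. On mm9, the build of the deposited table, Psmb8 (NM_010724) spans 34335140 to 34338399 on the plus strand and Psmb9 (NM_013585) 34319044 to 34324275 on the minus strand, head to head with the peptide transporter gene Tap1. Psmb10 (NM_013640) lies on chromosome 8 at 108459628 to 108462292. The 250 bases before the transcription starts of Psmb8 and Psmb9 are shown because both genes are textbook interferon-γ targets with high levels per kilobase. They come from RefSeq on GRCm38.p6, at chr17:34197945-34198194 on the plus strand and chr17:34187331-34187580 on the minus strand, each 5′ to 3′. Capitals mark matches on either strand to TTCNNNGAA, the letters of an interferon-γ-activated (GAS) element, in Psmb8, and to CCAAT, in Psmb9.
Psmb8: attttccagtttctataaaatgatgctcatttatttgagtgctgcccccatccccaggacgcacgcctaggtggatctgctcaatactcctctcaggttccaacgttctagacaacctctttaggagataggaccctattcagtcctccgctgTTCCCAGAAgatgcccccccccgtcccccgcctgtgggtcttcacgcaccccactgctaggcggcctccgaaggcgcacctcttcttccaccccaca
Psmb9: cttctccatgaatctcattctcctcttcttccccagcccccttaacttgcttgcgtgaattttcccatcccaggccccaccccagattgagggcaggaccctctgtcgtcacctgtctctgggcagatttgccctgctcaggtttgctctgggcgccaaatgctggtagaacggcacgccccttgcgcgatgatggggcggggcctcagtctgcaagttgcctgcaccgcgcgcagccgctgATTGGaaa

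The match in Psmb8 reads TTCCCAGAA and lies 97 to 89 bases before the start. The RefSeq promoter table, whose windows run from 250 bases before to 50 bases after each start, matched 42 of the 50 members. In it, TTCNNNGAA occurs in 3 of the 42 members (Psmb8, Psmd2 and Psmg1) and in 9.55% of all 27025 genes. The core of an interferon-stimulated response element, GAAA on both sides of 2 bases of any kind, occurs in 5 members (Psmb3, Psmd4, Psmd9, Psme1 and Psmg4) and in 3.99% of all genes. TGACNNNGC, the letters of the element bound by the proteasome regulator Nfe2l1 and its relatives, occurs in 6 members, 14.3%, and in 13.99% of all genes. CCGGAAG, the letters of an ETS factor site, occurs in 15 members, 35.7%, and in 9.93% of all genes, while CCAAT occurs in 15 members and in 41.1% of all genes. A match describes the letters only, and none is shown to be bound.

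The immunoproteasome subunits were measured in all libraries, and with all 8 libraries and the deposited scaling none passed the threshold in any comparison. Psmb8 stood at 410 and 452 CPM in Treg and 354 and 328 CPM in non-Treg libraries of monoclonal mice, and at 289 and 425 CPM in Treg and 297 and 325 CPM in non-Treg libraries of polyclonal mice (replicates A and B). Both monoclonal Treg libraries lay above both monoclonal non-Treg libraries, and both monoclonal non-Treg above both polyclonal non-Treg libraries. Polyclonal Treg replicate A was the lowest of the 8, and replicate B lay between the 2 monoclonal Treg libraries. Psmb9 stood at 136 and 139 CPM in Treg and 133 and 111 CPM in non-Treg libraries of monoclonal mice, and at 97.8 and 139 CPM in Treg and 99.2 and 101 CPM in non-Treg libraries of polyclonal mice, in the same order of groups for the non-overlapping pairs. Psmb10 stood at 129 and 109 CPM in Treg and 117 and 101 CPM in non-Treg libraries of monoclonal mice, and at 68.2 and 124 CPM in Treg and 82.7 and 91.3 CPM in non-Treg libraries of polyclonal mice, and its 2 monoclonal groups overlapped.

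For Treg against non-Treg cells in monoclonal mice, the limma log2 fold change of Psmb8 was 0.34 ± 0.16 (SE; 95% interval 0.003 to 0.67; adjusted p = 0.138 over all genes tested). It was 0.17 ± 0.16 for Psmb9 (adjusted p = 0.495) and 0.12 ± 0.22 for Psmb10 (adjusted p = 0.736), both by limma. In polyclonal mice the Treg effects were 0.18, 0.22 and 0.08 (limma adjusted p = 0.660, 0.573 and 0.919). Between monoclonal and polyclonal non-Treg cells the differences were 0.13, 0.28 and 0.32 (limma adjusted p = 0.634, 0.278 and 0.367). Between monoclonal and polyclonal Treg cells they were 0.29, 0.24 and 0.36, with 95% intervals of -0.04 to 0.63, -0.12 to 0.59 and -0.11 to 0.83 (limma adjusted p = 0.195, 0.331 and 0.264). A difference of 0.5 on the log2 scale lies within each of these 3 intervals. Without polyclonal Treg replicate B, all 3 were higher in monoclonal than in polyclonal Treg cells, and without replicate A none was. Psmb8 passed in the monoclonal Treg effect without either polyclonal Treg library and when the fit held the monoclonal libraries alone, and in the polyclonal Treg effect without replicate A. Between non-Treg cells, Psmb10 passed when the fit held the non-Treg libraries alone. Scaled to the Cd3 genes, all 3 passed between the non-Treg groups, higher in monoclonal cells by 0.67, 0.81 and 0.85 (limma adjusted p = 0.0369, 0.0104 and 0.0113), where the median of all genes moved to 0.43. With the deposited scaling, Cd3e and Cd3g themselves passed as lower in monoclonal cells there.

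The constitutive counterparts varied in the same libraries. Psmb5 stood at 9.40 and 7.28 CPM in Treg and 6.93 and 3.74 CPM in non-Treg libraries of monoclonal mice, and at 8.31 and 11.3 CPM in Treg and 5.32 and 7.87 CPM in non-Treg libraries of polyclonal mice. Psmb6, the caspase-like subunit, ranged from 38.3 to 60.0 CPM and Psmb7 from 33.5 to 54.3 CPM. Setting each immunoproteasome gene against the subunit it replaces largely removes the scaling of the library. The log2 ratio of Psmb10 to Psmb7 was 1.25 and 1.43 in Treg and 1.34 and 1.48 in non-Treg libraries of monoclonal mice, and 0.96 and 1.18 in Treg and 1.28 and 1.23 in non-Treg libraries of polyclonal mice. The monoclonal libraries were above the polyclonal ones of the same cell type in both cell types, by 0.21 on average, with a 2-sided exact permutation p = 0.0556 within cell type, the smallest the design allows. The difference was 0.157 without polyclonal Treg replicate A and 0.267 without replicate B. The ratio of Psmb9 to Psmb6 differed by 0.32 and that of Psmb8 to Psmb5 by 0.46 in the same direction (exact permutation p = 0.167 and 0.111). The Treg minus non-Treg differences within mouse kind were -0.30 for Psmb8 to Psmb5, 0.28 for Psmb9 to Psmb6 and -0.13 for Psmb10 to Psmb7 (exact permutation p = 0.222, 0.167 and 0.167). Adjusted over the 6 tests, p was 0.200 or 0.222 throughout, and no test in this design of 36 arrangements could pass 0.05. Psmb5 has the shared sequence described above, so its ratio is the least certain of the 3. Psmb7 shares 28.1% of its windows with another gene, the protein-coding Nek6, and Psmb6 shares 2.67% with a pseudogene. Strand was ignored in this match, so whether it makes reads of Psmb7, and this ratio, uncertain cannot be told.

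**Figure D3:**
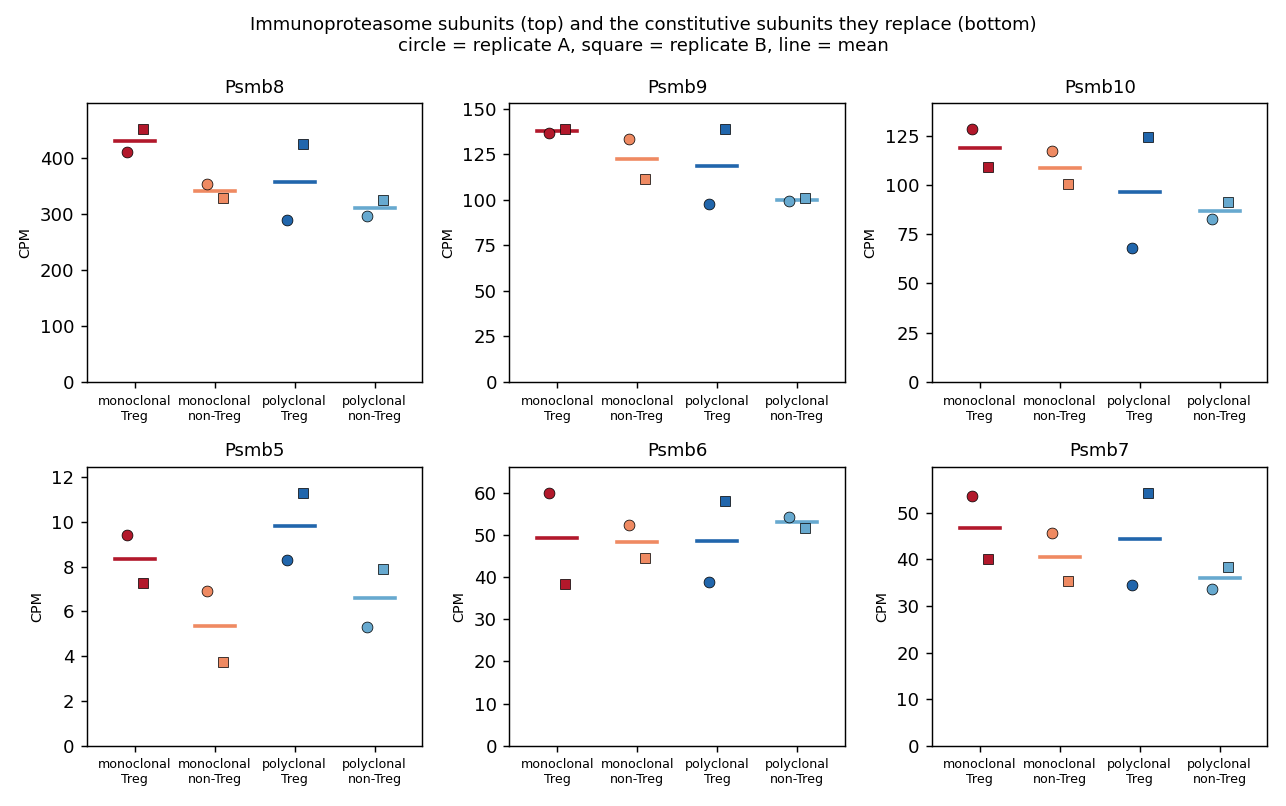
Levels of the 3 immunoproteasome genes (top) and of the constitutive subunits they replace (bottom) in the 4 groups. The vertical axis of each panel is CPM from 0, circles are replicate A, squares are replicate B and lines are group means of 2 libraries. In each top panel polyclonal Treg B is well above polyclonal Treg A (425 against 289 CPM for Psmb8).

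Across the whole complex, few members passed the threshold with the deposited scaling. Scaled to the Cd3 genes, 28 of 49 were lower in the monoclonal Treg effect, where 46.7% of all genes passed, and 11 were higher between non-Treg cells, where 22.8% did. For Treg against non-Treg cells in monoclonal mice, 2 of 49 members passed the limma threshold (adjusted p under 0.05), 4.08%, against 24.4% of all genes tested. In polyclonal mice 0 of 49 passed, against 7.9% of all genes, and 0 had an unadjusted limma p under 0.05, against 18.7%. Between monoclonal and polyclonal Treg cells, 4 of 49 passed, 8.16%, all lower in monoclonal cells, against 24.2% of all genes in either direction and 12.1% lower; 8 had an unadjusted limma p under 0.05, 16.3% against 35.8%. Between monoclonal and polyclonal non-Treg cells 0 passed, against 19.4%, and in the difference of the 2 Treg effects 0 passed, against 9.2%; for both, 0 members had an unadjusted limma p under 0.05, against 30.5% and 23.7%. edgeR and DESeq2 on the recovered reads each called 3, 0, 3, 0 and 0 members in these 5 comparisons, in the order given. The shares of all genes called were 20.2%, 7.11%, 20.5%, 15.3% and 7.35% with edgeR and 23.5%, 9.83%, 24.6%, 18.2% and 10.7% with DESeq2.

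The members' fold changes were also small beside those of all genes. The median absolute log2 fold change was 0.15 for the members and 0.37 for all genes in the monoclonal Treg effect, and 0.16 against 0.23 in the polyclonal one. It was 0.18 against 0.37 between monoclonal and polyclonal Treg cells and 0.16 against 0.31 between the non-Treg cells. A change of at least 2-fold was measured for 1 member in the monoclonal Treg effect, against 17.6% of all genes, and for 0 members in the other 3 simple comparisons, against 1011, 2139 and 1807 of the 12881 genes tested. That member was Psma3, an α ring subunit at 3.93 to 16.5 CPM, with 1.004 ± 0.39 (limma adjusted p = 0.0804). Its monoclonal non-Treg replicates A and B lay far apart, at 0.25 and -0.97 from its 8-library mean on the log2(CPM + 1) scale. The monoclonal Treg pair lay at 0.43 and 0.86. Psma3 also shares 22.0% of its windows with other genes. Signed medians were 0.05 against -0.02 for all genes in the monoclonal and 0.11 against 0.00 in the polyclonal Treg effect. The polyclonal median of the members was 0.31 without polyclonal Treg replicate A and -0.10 without replicate B, and the monoclonal one was -0.03 with TMM scaling and -0.06 when replicate B of its non-Treg pair was left out. The members' higher median level, given above, moves with this contrast in size, and its part was not tested. The groups did not overlap for 19 members in the monoclonal Treg effect (38.8%, against 61.0% of all genes), 13 in the polyclonal one (26.5% against 47.3%), 13 between Treg cells (26.5% against 54.1%) and 25 between non-Treg cells (51.0% against 66.5%).

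**Figure D4:**
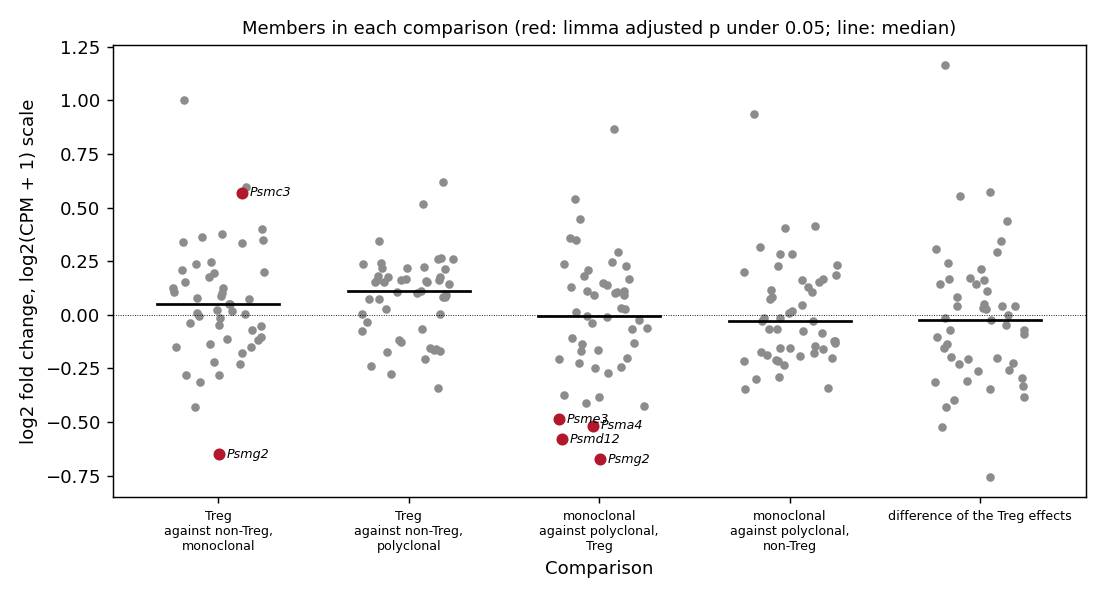
log2 fold changes of the 49 members (vertical axis, log2(CPM + 1) scale) in the 5 comparisons (horizontal axis); horizontal position within a comparison is arbitrary. Red points with names passed the limma threshold, 2 in the monoclonal Treg effect and 4 between Treg cells, and black lines are medians.

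In the monoclonal Treg effect, 1 ATPase of the regulatory particle was higher and 1 chaperone of the core was lower. Psmc3 (NM_008948, chromosome 2, 90894173 to 90899595 on mm9), which helps to unfold substrates, stood at 142 and 148 CPM in Treg and 103 and 91.6 CPM in non-Treg libraries of monoclonal mice, and at 115 and 158 CPM in Treg and 109 and 116 CPM in non-Treg libraries of polyclonal mice. The monoclonal groups did not overlap, and the difference was 0.57 ± 0.16 (limma adjusted p = 0.0164), but scaling to the Cd3 genes turned it to -0.11 (limma adjusted p = 0.672). Cd3e and Cd3g themselves passed as higher in this comparison. In polyclonal cells Psmc3 differed by 0.26 ± 0.16 (limma adjusted p = 0.430), and the 2 effects differed by 0.31 ± 0.22 (limma adjusted p = 0.442), so no difference between the mice was shown. Psmg2, which pairs with Psmg1 to guide assembly of the α ring (NM_134138, chromosome 18, 67801253 to 67813816), stood at 30.2 and 20.9 CPM in Treg and 39.6 and 40.3 CPM in non-Treg libraries of monoclonal mice, and at 39.1 and 42.2 CPM in Treg and 44.8 and 43.96 CPM in non-Treg libraries of polyclonal mice. Both monoclonal Treg libraries were below all 6 others. It was lower by -0.65 ± 0.21 than in monoclonal non-Treg cells (limma adjusted p = 0.0334) and by -0.67 ± 0.21 than in polyclonal Treg cells (limma adjusted p = 0.0288), 2 comparisons that share the monoclonal Treg libraries. Without monoclonal Treg replicate B, the lower of the 2, neither passed, and Psmc3 was also lost without that library (0 members passed in this comparison) and without monoclonal non-Treg replicate B (0 members). Psmg2 was lost in both comparisons without either monoclonal non-Treg or either polyclonal non-Treg library as well, and between the Treg groups also without either polyclonal Treg library.

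Members with an unadjusted limma p under 0.05 in the monoclonal Treg effect numbered 6, 12.2% against 35.3% of all genes. Beside Psmc3, Psmg2, Psma3 and Psmb8 these were Psme4 and Psmc6. Psme4, an activator of nuclear proteasomes, measured 133 and 109 CPM in monoclonal Treg against 155 and 171 in monoclonal non-Treg libraries, a difference of -0.43 ± 0.16 (limma adjusted p = 0.0612), and edgeR and DESeq2 called it lower. The ATPase Psmc6 measured 105 and 96.2 against 81.0 and 70.8 CPM (0.40 ± 0.16, limma adjusted p = 0.0772).

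Between the 2 kinds of Treg cell, an activator, a lid subunit, a core subunit and a core chaperone were lower in monoclonal cells. Psme3 (NM_011192, chromosome 11, 101177565 to 101184844), whose product forms the nuclear activator, measured 142 and 144 CPM in monoclonal Treg against 193 and 208 in polyclonal Treg libraries, with 161 and 149 in monoclonal and 172 and 182 in polyclonal non-Treg libraries. The monoclonal libraries were below the polyclonal ones in both cell types, by -0.49 ± 0.12 in Treg cells (limma adjusted p = 0.0104) and by -0.19 ± 0.12 in non-Treg cells (limma adjusted p = 0.324). Psmd12 (NM_025894, chromosome 11, 107340842 to 107359350), a scaffold of the lid, measured 50.2 CPM in both monoclonal Treg libraries against 70.3 and 81.2 CPM in the polyclonal ones, while non-Treg libraries had 63.8 and 58.8 CPM in monoclonal and 62.3 and 74.7 CPM in polyclonal mice. The Treg groups did not overlap and differed by -0.58 ± 0.16 (limma adjusted p = 0.0188), a call lost without either monoclonal Treg library or without polyclonal Treg replicate B. Psma4 (NM_011966, chromosome 9, 54798666 to 54805837), an α ring subunit, measured 51.2 and 43.4 CPM against 66.4 and 69.4 in the Treg groups and 50.9 and 47.0 against 48.9 and 58.1 in the non-Treg groups. Its Treg difference was -0.52 ± 0.17 (limma adjusted p = 0.0422), and it passed under 4 of 17 alternatives, where adjusted p ran from 0.0372 to 0.164. The corresponding differences of Treg effects were -0.29 for Psme3, -0.43 for Psmd12 and -0.40 for Psma4 (limma adjusted p = 0.336, 0.286 and 0.356).

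**Figure D5:**
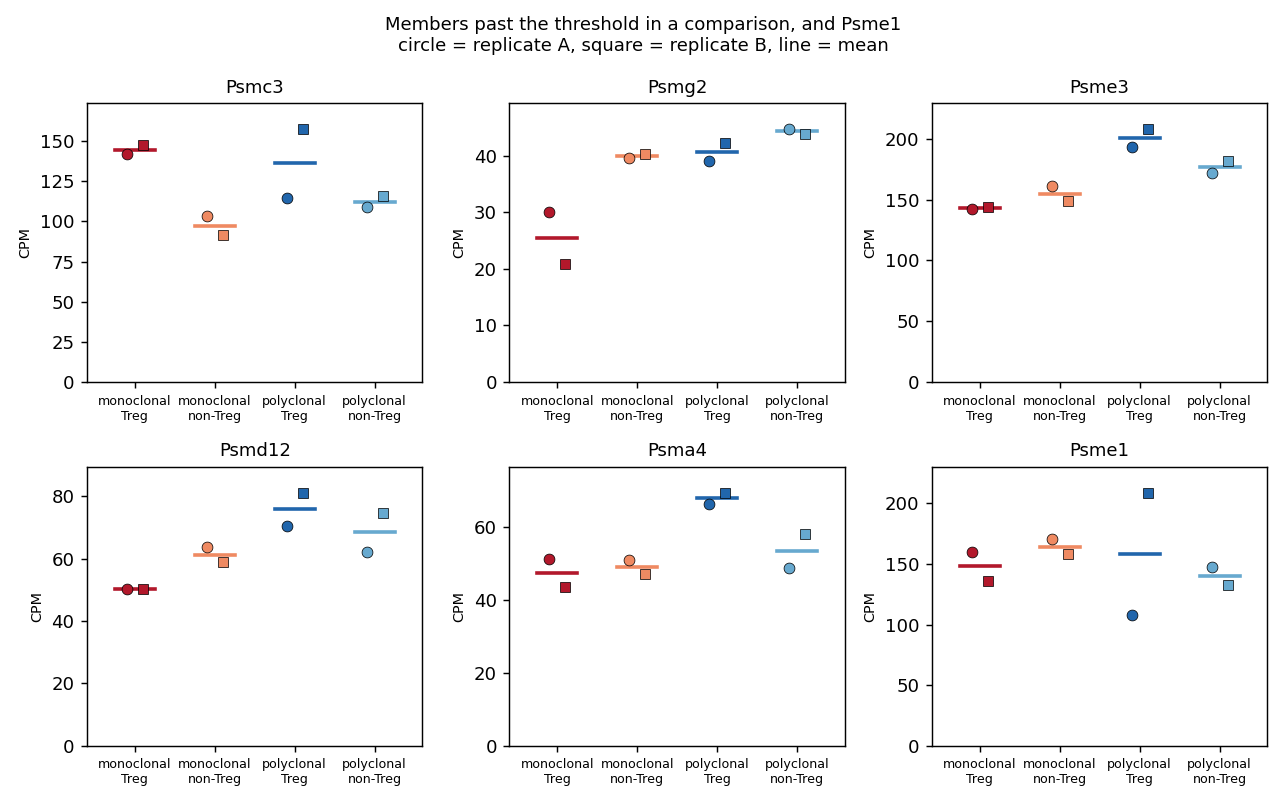
Levels of the 5 members past the threshold in a comparison, and of Psme1, in the 4 groups. The vertical axis of each panel is CPM from 0, circles are replicate A, squares are replicate B and lines are group means of 2 libraries. For Psmg2 both monoclonal Treg libraries (30.2 and 20.9 CPM) lie below all others, and for Psme1 the 2 polyclonal Treg libraries (108 and 209 CPM) are the lowest and the highest of all 8.

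The bases before the starts of Psme3, Psmd12 and Psma4 are shown to compare 3 members that passed in the same direction between the Treg groups. They are 250 bases each from RefSeq on GRCm38.p6, plus strand, 5′ to 3′, at chr11:101315963-101316212 for Psme3, chr11:107479278-107479527 for Psmd12 and chr9:54950609-54950858 for Psma4. Capitals mark matches on either strand to CCGGAAG and CCAAT in Psme3 and to TGACNNNGC and CCGGAAG in Psmd12.
Psme3: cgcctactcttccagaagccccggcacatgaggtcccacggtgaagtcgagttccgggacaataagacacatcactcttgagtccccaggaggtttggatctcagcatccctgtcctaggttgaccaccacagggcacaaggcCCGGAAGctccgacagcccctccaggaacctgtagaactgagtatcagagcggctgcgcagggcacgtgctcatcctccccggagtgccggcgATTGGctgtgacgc
Psmd12: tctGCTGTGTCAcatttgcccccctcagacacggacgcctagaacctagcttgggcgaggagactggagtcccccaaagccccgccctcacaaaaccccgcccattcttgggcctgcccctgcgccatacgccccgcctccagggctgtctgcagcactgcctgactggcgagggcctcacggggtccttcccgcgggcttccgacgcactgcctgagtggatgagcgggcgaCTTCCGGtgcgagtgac
Psma4: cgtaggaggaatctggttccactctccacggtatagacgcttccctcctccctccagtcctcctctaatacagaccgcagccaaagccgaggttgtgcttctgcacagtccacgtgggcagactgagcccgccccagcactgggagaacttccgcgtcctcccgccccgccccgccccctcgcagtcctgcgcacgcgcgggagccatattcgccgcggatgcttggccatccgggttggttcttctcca
Psma4 has no match to any of the 5 motifs in its window.

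The polyclonal Treg replicates decided several of the counts. Without replicate A, 5 members were higher in polyclonal Treg than in non-Treg cells: Psma6, Psmb8, Psmc3, Psmd8, a lid subunit, and Psme1, against 9.69% of all genes called; without replicate B the count was 0, against 8.47%. Between the Treg groups, 5 members were lower in monoclonal cells without replicate A (Psmd1, Psmd12, Psme1, Psme2b and Psme3, against 18.9% of all genes). Without replicate B, 11 were higher (Psma1, Psma6, Psma7, Psmb3, Psmb4, Psmb8, Psmb9, Psmb10, Psmd4, Psmd8 and Psme1) and Psme3 lower, against 28.0%. Psme3 was the only member lower without either. In these fits the remaining library is assumed to vary like the other groups. The direction of Psme1 depended on the library left out, and it was higher by 0.45 in monoclonal Treg cells without replicate B (limma adjusted p = 0.0329).

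With all 8 libraries and the deposited scaling, the activator genes Psme1 and Psme2 and the inhibitor did not pass the threshold in any comparison. Scaled to the Cd3 genes, Psme1 and Psmf1 were lower in the monoclonal Treg effect. With that scaling Psme1 was also higher in monoclonal than polyclonal non-Treg cells. Psme1 stood at 160 and 136 CPM in Treg and 170 and 158 CPM in non-Treg libraries of monoclonal mice, and at 108 and 209 CPM in Treg and 147 and 132 CPM in non-Treg libraries of polyclonal mice, so the polyclonal Treg pair spanned all other values. Psme2 measured 24.4 and 32.5, 30.5 and 25.3, 18.6 and 36.4, and 30.2 and 33.4 CPM in the same order of groups. Psmf1, which blocks the core, measured 42.7 and 52.5, 58.6 and 47.3, 41.1 and 63.6, and 52.4 and 49.7 CPM, and its groups overlapped in every simple comparison.

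Summed by role, the 11 non-ATPases of the regulatory particle took 815 to 1103 CPM per library and the 6 ATPases 445 to 639 CPM. The 8 α ring genes took 323 to 487 CPM, the 7 constitutive β ring genes 282 to 456 CPM, the 4 activators 421 to 571 CPM and the 3 immunoproteasome genes 455 to 700 CPM. For the α ring and the constitutive β ring, the lowest sum of the 8 libraries was that of polyclonal Treg replicate A and the highest that of replicate B. The 4 chaperones of the core summed to 68.2 and 60.6 CPM in monoclonal Treg and 74.6 to 84.9 CPM in the other libraries. This was not a shift of all 4. In the monoclonal Treg effect 2 had positive and 2 negative log2 fold changes (-0.65 to 0.34), and likewise between the Treg groups (-0.67 to 0.45). In bulk samples, fewer cells of a type and less RNA per cell cannot be told apart.

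Of 12 genes of class I presentation, which use the peptides the proteasome makes, 6 were higher and 0 lower in monoclonal Treg than non-Treg cells (limma), against 24.4% of all genes called. Of these, 4 (H2-K1, Nlrc5, Canx and Tapbpl) turned negative when scaled to the Cd3 genes. The list's median log2 fold change was 0.35, against -0.02 for all genes. B2m, the light chain of class I molecules, measured 3931 and 3307 CPM against 2277 and 2128 (0.71 ± 0.15, limma adjusted p = 0.00291). H2-D1, a class I heavy chain, differed by 0.76 ± 0.13 (limma adjusted p = 0.000623). Nlrc5, the activator of class I genes, differed by 0.65 ± 0.12 (limma adjusted p = 0.00152) but by -0.04 when scaled to the Cd3 genes. The transporter genes Tap1 (0.31 ± 0.12) and Tap2 (0.23 ± 0.11) did not pass (limma adjusted p = 0.0786 and 0.140). In polyclonal mice 0 of the 12 passed with limma or edgeR, against 7.9% and 7.11% of all genes. DESeq2 called 4, against 9.83% of all genes, and 5 had an unadjusted limma p under 0.05, against 18.7%. B2m had 0.45 ± 0.15 and Nlrc5 0.41 ± 0.12 (limma adjusted p = 0.0881 and 0.0611). Between the Treg groups 3 were higher in monoclonal cells, H2-D1 by 0.77 ± 0.13, B2m by 0.75 ± 0.15 and the chaperone Canx by 0.42 ± 0.13 (limma adjusted p = 0.000504, 0.00206 and 0.0308), against 24.2% of all genes called. Without polyclonal Treg replicate B, Canx did not pass, and without replicate A, B2m and H2-D1 passed in the polyclonal Treg effect. Between non-Treg cells B2m was higher by 0.48 ± 0.15 and Nlrc5 lower by -0.53 ± 0.12 (limma adjusted p = 0.0327 and 0.00625), the latter 0.0046 when scaled to the Cd3 genes.

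Of the 10 genes of interferon-γ signalling, 4 were higher and 3 lower in monoclonal Treg than non-Treg cells, against 24.4% of all genes called in either direction. Ifngr1, a receptor chain, stood at 828 and 916 CPM in Treg and 443 and 456 CPM in non-Treg libraries of monoclonal mice, and at 171 and 218 CPM in Treg and 105 and 112 CPM in non-Treg libraries of polyclonal mice. It was higher in monoclonal cells of both types, by 2.17 ± 0.13 in Treg and 2.04 ± 0.13 in non-Treg cells (limma adjusted p = 4.13e-08 and 3.96e-08). The feedback inhibitor Socs1 was higher in Treg cells of both mice, by 1.53 ± 0.20 and 1.30 ± 0.20 (limma adjusted p = 9.16e-05 and 0.000720). Irf1, a transcription factor that induces Psmb8 and Psmb9, was higher by 0.71 ± 0.13 in the monoclonal Treg effect and by 0.50 ± 0.13 between the Treg groups (limma adjusted p = 0.00127 and 0.0120), and it measured 0.27 ± 0.13 in polyclonal mice (limma adjusted p = 0.294). Ifng itself was low in monoclonal cells, at 0.322 to 2.82 CPM, and reached 16.3 and 12.97 CPM in the polyclonal non-Treg pair, a difference of -3.08 ± 0.51 between the non-Treg groups (limma adjusted p = 0.000447). Irf8 and Jak2 were lower, and so was the receptor chain Ifngr2, in monoclonal Treg than non-Treg cells. Irf8, which dendritic cells also express, measured 333 and 216 CPM in monoclonal non-Treg libraries, where the dendritic cell markers were highest, and 35.8 to 105 CPM in the others.

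Of 22 regulators and partners of the proteasome, 19 were in the table and passed the filter. In the monoclonal Treg effect 3 were lower and 0 higher, against 24.4% of all genes called. They included Ddi2, the protease that activates Nfe2l1 (-0.92 ± 0.15), and Nfe2l2, a stress factor related to Nfe2l1 (-0.77 ± 0.16), with limma adjusted p = 0.000639 and 0.00285. Nfe2l2 was also lower in polyclonal Treg cells, by -0.75 ± 0.16 (limma adjusted p = 0.00760). The monoclonal non-Treg pair held 163 and 200 CPM of Ddi2, against 85.3 to 106 CPM in the other 6 libraries. Between non-Treg cells 2 of the 19 were higher in the monoclonal mice and 0 lower, against 19.4% of all genes called. Among them was Ddi2, by 0.87 ± 0.15 (limma adjusted p = 0.000812). Between Treg cells only the proteasome-binding Zfand5 passed, higher in monoclonal cells by 0.57 ± 0.17 (limma adjusted p = 0.0236), against 24.2% of all genes called. Nfe2l1, the factor that raises all proteasome subunits when the enzyme is inhibited, measured 129 to 176 CPM and did not pass in any comparison, nor did the assembly factor Pomp, at 50.6 to 85.7 CPM, or the ubiquitin receptor Adrm1, at 9.22 to 16.8 CPM. The libraries that set Ddi2 and Irf8 apart are those richest in dendritic cell markers, and the part of those cells in these differences was not tested.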

How the data were processed

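The authors deposited 1 table of CPM values with mm9 gene positions. Per the submitters' processing notes the tools were STAR 2.4.1a, HOMER 4.7, edgeR, Trimmomatic 0.33, FastQC 0.10.1 and CASAVA 1.8.2, with no roles given; per the labels' protocols, poly-dT selected, stranded RNA was read as single ends of 50 bases. The values were whole multiples of 1 read within 0.01 read for 100% of entries, so reads were recovered. The 12881 genes that reached 1 CPM in 2 or more libraries were tested on log2(CPM + 1) by limma 3.58.1 (R 4.3.3), a scale that understates changes of low genes, with a mean-variance trend, robust spread, 1 mean for each of 4 groups, all 8 libraries, Benjamini-Hochberg adjustment over all genes tested and a threshold of 0.05, 2-sided. Errors are standard errors. The code was tested on simulated data. Alternatives were the pseudocount, filters, TMM and Cd3 scaling, edgeR 4.0.16, DESeq2 1.42.0, the replicate letter, fewer libraries and each library left out. Named genes were the catalytic pairs, activators and inhibitor, the members past the threshold, the most abundant member of each role, and the 3 largest changes of each list with preset genes; examples outside this rule (Psma3, Psma6, Psma8, Psmb3, Psmc6 and the members called without a library) were chosen after their values were seen. Members and lists were chosen with earlier results of these data known. Motifs were searched on both strands of RefSeq windows (GRCm38.p6), and shared windows in GENCODE transcripts. No per-sample column was left unused (0). Some genes of the accompanying lists are not reported here.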

Additional observations from a re-analysis of the deposited data

Results flagged for a closer look

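In 2 genes of the class I presentation, interferon-γ and proteasome regulator lists, and in 0 of the 49 members, the Treg effect differed between monoclonal and polyclonal mice in a test of the difference itself. Ddi2, the protease that activates Nfe2l1, had a Treg effect lower by -0.92 in monoclonal mice on the log2 scale (limma adjusted p = 0.0161). Irf8, an interferon-responsive transcription factor, had a Treg effect lower by -2.42 (limma adjusted p = 0.000597).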

How the results depend on the processing

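With 2 libraries a group and a threshold shared with 12881 genes, changes of the size seen in most members could not be separated from the spread. Depths were 14076330 to 19722321 reads, and their part was not tested. Counts of members past the threshold, in the order monoclonal Treg effect, polyclonal Treg effect, monoclonal against polyclonal Treg, the same in non-Treg, and difference of the Treg effects, were 2, 0, 4, 0 and 0. With the replicate block they were 2, 0, 3, 0 and 0, and the block changed no other call than Psma4. Deviations of same-letter Treg and non-Treg libraries correlated at 0.097 in monoclonal and 0.075 in polyclonal mice. Across the kinds of mouse the correlations ran from -0.093 to 0.011. The block fits the same letter effect in all groups, so whether the letter pairs libraries within a kind of mouse cannot be told. Without a filter the first count was 1 and the third 2, against 17.2% and 16.3% of all genes called. In fits of only the libraries compared the third was 0 and the fourth 3, against 13.4% and 34.3% of all genes. Leaving out each library gave 0 to 5, 0 to 5, 1 to 12, 0 to 1 and 0 to 1. The share of all genes called also moved between these settings, the left-out libraries included. The cause of these shifts was not tested.

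The Cd3 genes are not a fixed reference. Cd3e and Cd3g themselves passed in the monoclonal Treg effect, where Cd4 moved the opposite way. The Cd3 scaling factors of polyclonal Treg replicates A and B were 0.908 and 1.31. Scaling to Cd3e, Cd3d and Cd3g brought the median of all genes to -0.65, -0.03, -0.13, 0.43 and -0.63, beside members' medians of -0.62, 0.08, -0.11, 0.49 and -0.66, and gave counts of 28, 0, 1, 11 and 4, against 46.7%, 4.07%, 14.7%, 22.8% and 15.0% of all genes called. In the monoclonal Treg effect it turned Psmc3 to -0.11, Psma7 to -0.61, Psmb1 to -0.56, Psmc4 to -0.66, Psmd3 to -0.63, Psmd4 to -0.68, Psmd5 to -0.62, Psmd7 to -0.57, Psmd8 to -0.60, Psmd11 to -0.66, H2-K1 to -0.29, Nlrc5 to -0.037, Canx to -0.11, Tapbpl to -0.0378, Ubqln1 to -0.64 and Jak1 to -0.62. Between non-Treg cells it turned Nlrc5 to 0.0046 and Jak1 to 0.0894. Without polyclonal Treg replicate B, Psme1 turned to 0.45 between Treg cells, against -0.498 without replicate A. Psmc3 passed under 14 of 17 alternatives, Psme3 under 15, Psmd12 under 13, Psmg2 under 10 in the monoclonal Treg effect and 7 between Treg cells, and Psma4 under 4.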
